A study of Mus musculus with 6 samples.

Results

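Tagln3, Cald1 and Acta2 are genes of the actin cytoskeleton whose values were higher in mouse epidermis that carried the K14ΔNLef1 transgene. They were chosen by that difference, measured on these same arrays, so their values are described here without a test. Their relatives of the transgelin, calponin and tropomyosin families, namely Tagln, Tagln2, Cnn1, Cnn2, Cnn3, Tpm1 and Tpm2, were taken by name and were tested. The 10 genes were read by 70 of the 114330 probe sets in the table, a probe set being a group of short probes that reads 1 stretch of a transcript. Only probe sets annotated to exactly 1 of these genes were used.

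The study compared back-skin epidermis of wild type mice with that of mice carrying K14ΔNLef1, a form of the transcription factor Lef1 without its N-terminal β-catenin-binding part, driven by the keratin 14 promoter. That promoter is active in basal cells of the epidermis and in hair follicles, so the transgene itself is limited to keratin 14-expressing cells. Each genotype had 3 arrays, labelled as biological replicates of unfractionated keratinocytes, and all mice were females of 9.5 weeks on a C57BL6/CBA background. RNA was taken after flow sorting, amplified as whole transcripts and hybridised to an exon array. The labels do not say whether each array is 1 mouse. The p-values therefore weigh a difference only against the spread between these samples. These are bulk samples, so more cells of a kind and more RNA per cell cannot be told apart.

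Caldesmon, transgelins and calponins bind actin filaments, and in smooth muscle they regulate how filaments slide on myosin. Caldesmon, the product of Cald1, binds actin, tropomyosin, myosin and calmodulin and restrains the actomyosin ATPase. Acta2 encodes smooth muscle α-actin, which outside vessels is known from myofibroblasts, myoepithelial cells and the dermal sheath of the hair follicle. Tagln3 is the transgelin best known from neurons, Tagln (SM22α) the one of smooth muscle, and Tagln2 the one of most other cells. Many of these genes are known targets of serum response factor (SRF) and its actin-sensing partners, the MRTFs, which act through CArG boxes. In skin, Lef1 and other TCF factors are known for directing hair follicle fate.

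The DNA just before the start of each gene is shown because the 3 genes moved in the same direction and Lef1 is itself a DNA-binding factor. The windows are 240 bases long, from 250 to 11 bases before the RefSeq start, 5′ to 3′ on the gene's strand, from RefSeq's table on GRCm38.p6, a later build than that of the arrays. Capitals mark an MCAT word or, in Acta2, also CArG boxes with 1 central letter changed. The Tagln3 window lies at chr16:45724542-45724781 on the minus strand, and that of Acta2 at chr19:34255384-34255623 on the minus strand. The table gave Cald1 a pair of starts, with windows at chr6:34598254-34598493 and chr6:34709194-34709433 on the plus strand.
Tagln3: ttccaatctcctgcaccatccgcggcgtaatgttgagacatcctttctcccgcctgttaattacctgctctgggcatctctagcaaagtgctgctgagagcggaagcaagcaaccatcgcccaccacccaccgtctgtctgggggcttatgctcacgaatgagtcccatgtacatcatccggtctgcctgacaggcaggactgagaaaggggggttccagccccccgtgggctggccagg
Cald1, start 1: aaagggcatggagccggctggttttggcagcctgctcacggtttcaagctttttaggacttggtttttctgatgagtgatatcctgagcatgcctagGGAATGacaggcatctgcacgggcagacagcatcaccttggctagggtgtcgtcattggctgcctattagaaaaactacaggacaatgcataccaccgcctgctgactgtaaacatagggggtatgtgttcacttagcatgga
Cald1, start 2: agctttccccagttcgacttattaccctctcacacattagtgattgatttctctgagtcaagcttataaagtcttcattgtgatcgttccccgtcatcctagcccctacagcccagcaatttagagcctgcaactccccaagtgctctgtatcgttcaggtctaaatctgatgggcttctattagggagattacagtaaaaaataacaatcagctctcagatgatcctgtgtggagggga
Acta2: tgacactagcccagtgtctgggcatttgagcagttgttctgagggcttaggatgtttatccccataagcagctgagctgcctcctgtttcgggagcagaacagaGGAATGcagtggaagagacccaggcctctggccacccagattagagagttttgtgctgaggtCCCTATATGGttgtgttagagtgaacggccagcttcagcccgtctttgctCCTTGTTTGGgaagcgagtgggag

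Tagln3's window held none of the searched motifs, and its GC content was 58.3%. Cald1's first window held GGAATG, the MCAT word bound by TEAD factors, 153 to 148 bases before the start. Its second window held none, at 44.6% GC. Acta2's window held GGAATG at 146 to 141 bases before the start and a pair of CArG boxes with 1 central letter changed, CCCTATATGG at 84 to 75 and CCTTGTTTGG at 34 to 25 bases. Of all 32851 promoter windows of that length in the table, 12.231% held GGAATG on either strand, 1.437% held a CArG box and 7.001% one with a central letter changed.

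Among the relatives, the window of Cnn2 held an unaltered CArG box at chr10:79988544-79988553, 56 to 47 bases before its start, in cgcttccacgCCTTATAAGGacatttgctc. Tagln2 and Tpm1 held the MCAT word, and Cnn1, Cnn3 and Tpm2 held none of the motifs. No site found overlapped another. The TCF and LEF words CTTTG followed by AA, AT, TA or TT, searched on both strands, were in 0 of the 10 windows of 9 genes, against 14.407% of all windows. No promoter of Tagln was matched in the table. A match or its absence in these windows is a description of letters and does not show binding.

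Before the members are given, the labels were checked. Lef1 was at 5.81, 7.02 and 6.26 in wild type and 11.11, 11.13 and 11.24 in K14ΔNLef1, a rise of 4.80 (SE 0.29; limma adjusted p = 0.0004) on the log2 scale, which is used throughout. Lef1 was therefore high on every array labelled with the transgene. The array medians were 190.2 to 199.8 intensity units in wild type and 154.2 to 203.2 in K14ΔNLef1, and K14ΔNLef1 replicate 1 was the lowest. Krt14 and Krt5, keratins of basal keratinocytes, were between 11.98 and 13.06 on all 6 arrays. Of 11281 genes, 0.328% rose and 0.833% fell at a limma adjusted p of 0.05, or 37 and 94 genes. After every array was given a common median, 103 genes rose and 133 fell, and without K14ΔNLef1 replicate 1 115 rose and 124 fell.

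Tagln3, the neuronal transgelin, had the largest difference of the 10 genes. Its gene value, which averages the log2 intensities of 5 probe sets, was 5.62, 5.54 and 6.17 in wild type replicates 1, 2 and 3 and 8.77, 9.34 and 9.20 in K14ΔNLef1 replicates 1, 2 and 3. The means were 5.78 ± 0.34 and 9.10 ± 0.30 (SD, n = 3), a 10.02-fold difference in intensity, and no array of one genotype reached the range of the other. By the size of its rise Tagln3 ranked 4 among all 11281 genes, a place that follows from its having been chosen.

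The 5 probe sets of Tagln3 differed in size of change, from 1.63 to 4.75. Probe set 4869118 had the largest, from 4.91, 4.08 and 6.19 in wild type to 8.74, 10.25 and 10.44 in K14ΔNLef1. Probe set 4465287 was the tightest across the transgenic arrays, at 9.49, 9.30 and 9.41 after 5.97, 5.09 and 5.10 in wild type. The smallest change was in probe set 4426655, which was already at 8.04, 8.35 and 8.47 in wild type and reached 9.63, 9.94 and 10.18. All 5 lay above every wild type array in every K14ΔNLef1 array, and so did 5.11% of all probe sets in the table. The positions of the probe sets within the gene were not used here.

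**Figure D1:**
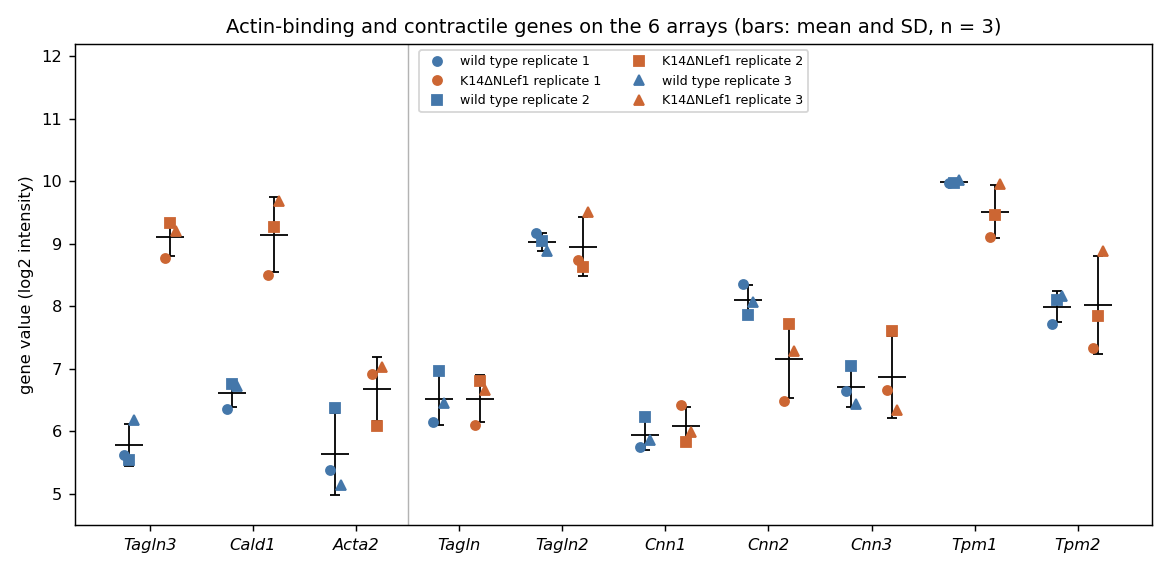
Gene values (vertical axis, log2 intensity) of the 10 genes on each array, wild type in blue and K14ΔNLef1 in orange, with marker shape for the replicate number and black bars for mean and SD (n = 3). Tagln3 and Cald1 are the genes left of the grey line whose genotypes do not overlap, while for Acta2 K14ΔNLef1 replicate 2, at 6.08, lies under wild type replicate 2, at 6.37. Levels of different genes are read by different probes and are not to be set against each other.

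Cald1, the caldesmon gene, was also higher on every transgenic array. Its gene value over 11 probe sets was 6.36, 6.75 and 6.72 in wild type and 8.50, 9.27 and 9.68 in K14ΔNLef1. The means were 6.61 ± 0.22 and 9.15 ± 0.60 (SD, n = 3), a difference of 2.54 or 5.82-fold in intensity. The transgenic arrays were more spread than for Tagln3: replicate 1 was the lowest of the 3 in 8 of the 11 probe sets and replicate 3 the highest in 7. Replicate 1 is also the array with the lowest median, and the part of that in this order was not tested.

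All 11 probe sets of Cald1 were higher in K14ΔNLef1 on average, by 1.20 to 3.51 with a median of 2.53. Probe set 4671756, with the largest change, went from 5.33, 6.46 and 5.17 to 7.97, 9.48 and 10.04. Probe set 4368002 went from 7.24, 9.21 and 7.59 to 11.16, 11.40 and 11.52, with the transgenic arrays close together. These sets kept a clear gap between the genotypes. At the other end, probe set 5186511 went from 5.70, 5.85 and 6.10 to 6.41, 7.002 and 7.85, a difference of 1.20. Probe set 4490480 was the single overlapping one, at 5.82, 6.64 and 5.04 against 6.53, 7.49 and 7.12, because K14ΔNLef1 replicate 1 lay just under wild type replicate 2. In 10 of the 11 sets every transgenic array was above every wild type array, as in 5.11% of all probe sets in the table. Without K14ΔNLef1 replicate 1 or without wild type replicate 2 the count was 11, which follows from how that single set overlapped. The count was also 11 with arrays shifted to the same median and with quantile normalization.

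**Figure D2:**
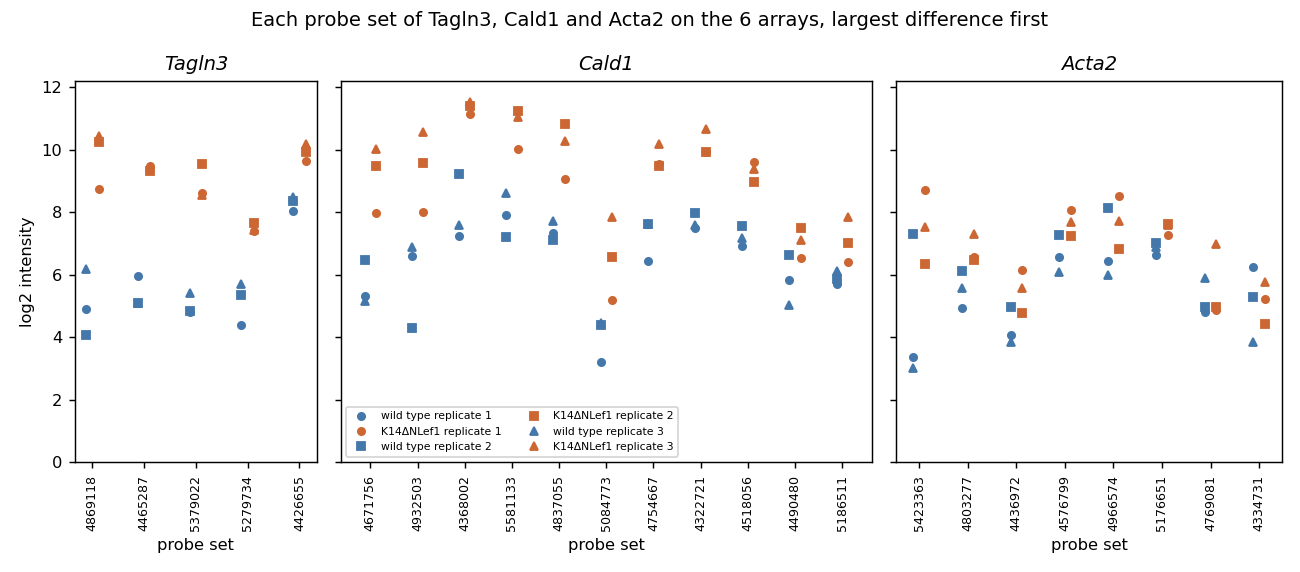
Log2 intensity (vertical axis) of each probe set of Tagln3, Cald1 and Acta2 on each array, ordered within a gene from the largest to the smallest difference, with wild type in blue and K14ΔNLef1 in orange. The colours separate in 5 of 5 sets of Tagln3 and 10 of 11 of Cald1 but in 2 of 8 of Acta2, where the square of wild type replicate 2 is often among the orange markers. Of all probe sets in the table, 5.11% separate with K14ΔNLef1 higher.

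Acta2, the smooth muscle actin gene, differed less and less evenly. Its 8 probe sets were all dimmer on average than the median probe set, and the part of that in the unevenness was not tested. Its gene value over 8 probe sets was 5.38, 6.37 and 5.14 in wild type and 6.92, 6.08 and 7.02 in K14ΔNLef1, so that K14ΔNLef1 replicate 2 was below wild type replicate 2. The means were 5.63 ± 0.65 and 6.67 ± 0.51 (SD, n = 3), a difference of 1.04 or 2.06-fold. All 8 probe sets were higher on average in K14ΔNLef1, from 0.01 to 2.97, but only 2 were above every wild type array on all 3 transgenic arrays. Those were probe set 4803277, at 4.94, 6.11 and 5.56 against 6.56, 6.46 and 7.30, and probe set 5176651, at 6.64, 7.001 and 6.89 against 7.26, 7.62 and 7.60. In the latter the means were 0.65 apart. Of all probe sets in the table, 5.11% lay above every wild type array in this way.

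The overlap in Acta2 followed the arrays. Wild type replicate 2 was the highest wild type array in 6 of the 8 probe sets, and K14ΔNLef1 replicate 2 was below the highest wild type array in 6. Probe set 5423363 shows it, at 3.35, 7.32 and 3.02 in wild type and 8.72, 6.33 and 7.53 in K14ΔNLef1. Without wild type replicate 2 the count of sets above every wild type array became 6, and without K14ΔNLef1 replicate 2 it became 5. Without any other single array it stayed at 2, and such a count cannot fall when an array is left out. Acta2 shares long stretches with the other muscle actins, so its probes may also read their transcripts. Actg2, the enteric smooth muscle actin, was at 6.19, 6.23 and 6.22 in wild type and 6.64, 6.65 and 6.30 in K14ΔNLef1, a difference of 0.32 (limma adjusted p = 0.553). Acta1, the skeletal muscle actin, was 0.18 lower in mean (-0.18; limma adjusted p = 0.723), so neither passed.

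None of the 7 relatives rose or fell at a limma adjusted p of 0.05, the test being adjusted over all 11281 genes. At an unadjusted p of 0.05 there was 1, Cnn2, and 11.8% of all genes were under that p. Without overlap between the genotypes were 2, Cnn2 and Tpm1, both lower in K14ΔNLef1, where 18.7% of all genes did not overlap in either direction and 6.91% were without overlap and higher in K14ΔNLef1. No relative was without overlap and higher. For 5 of the 7, all but Cnn2 and Tpm1, the difference took both signs over the alternatives to the processing. The count of 0 that passed held in all 17 alternatives to the processing.

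The transgelin relatives gave means close to each other between the genotypes. Tagln (SM22α), the classical smooth muscle transgelin, was at 6.14, 6.97 and 6.46 in wild type and 6.09, 6.81 and 6.65 in K14ΔNLef1. The 95% interval of its difference ran from -0.64 to 0.63. Of its 5 probe sets 4 were lower and 1 was higher, the latter being 4578442 with 1.16. Tagln2, the broadly expressed transgelin, was at 9.18, 9.04 and 8.88 against 8.73, 8.63 and 9.51, an interval of -0.66 to 0.51. K14ΔNLef1 replicate 3 was its highest transgenic array in 5 of 6 probe sets. The limma adjusted p was 0.998 for Tagln and 0.937 for Tagln2.

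None of the 3 calponins passed. Cnn1, the smooth muscle calponin, was at 5.74, 6.22 and 5.87 in wild type and 6.42, 5.83 and 5.99 in K14ΔNLef1, and its interval was -0.37 to 0.65. Cnn3, read by only 2 probe sets, was at 6.64, 7.05 and 6.43 against 6.65, 7.60 and 6.34, with an interval of -0.61 to 0.92. Both genes overlapped between the genotypes, and the limma adjusted p was 0.859 for Cnn1 and 0.895 for Cnn3. Cnn2, a calponin of non-muscle cells, was at 8.36, 7.86 and 8.07 in wild type and 6.49, 7.72 and 7.28 in K14ΔNLef1. Its difference was -0.93 (SE 0.31; interval -1.66 to -0.21; limma adjusted p = 0.286), and without K14ΔNLef1 replicate 1 it was -0.60. All 5 probe sets of Cnn2 were lower on average, from -1.68 to -0.14, and 1 of them, 4501988, did not overlap. Of all 109751 probe sets, 10384 were lower without overlap.

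Tropomyosins lie along the actin filament and govern which proteins reach it. Tpm1 was at 9.98, 9.98 and 10.02 in wild type and 9.11, 9.47 and 9.96 in K14ΔNLef1, a difference of -0.48 (interval -1.01 to 0.05; limma adjusted p = 0.486). Without K14ΔNLef1 replicate 1 the difference of Tpm1 was -0.28, and with the median of its probe sets in place of the mean it was -0.11. The wild type arrays were nearly equal, with an SD of 0.023, and the transgenic ones were spread, with an SD of 0.422. Tpm2 was at 7.72, 8.10 and 8.17 against 7.33, 7.84 and 8.88, a difference of 0.02 (interval -0.82 to 0.87; limma adjusted p = 0.988). K14ΔNLef1 replicate 3 was the highest transgenic array in 9 of its 10 probe sets. The K14ΔNLef1 range of Tpm2 thus enclosed its wild type range.

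**Figure D3:**
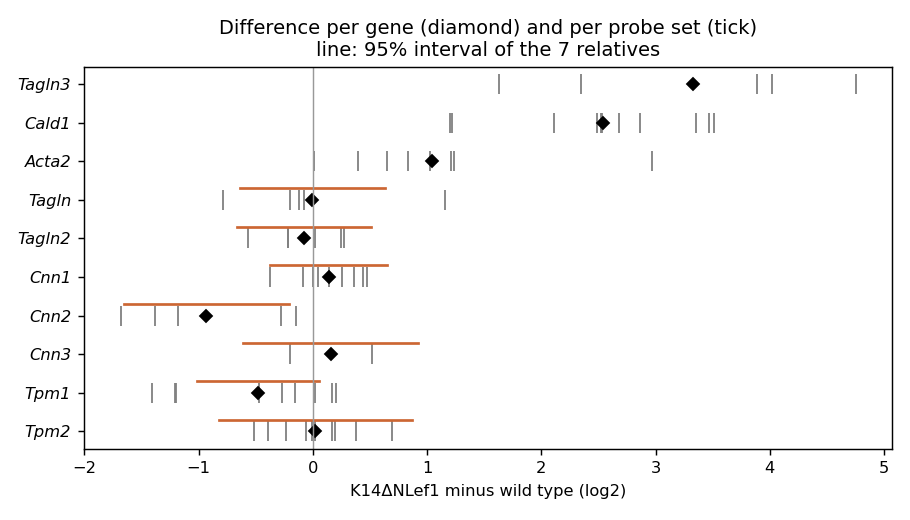
Difference of the means, K14ΔNLef1 minus wild type (horizontal axis, log2), for each gene (diamond) and each of its probe sets (grey ticks), with the 95% interval of the 7 tested relatives as an orange line. All ticks of Tagln3 and Cald1 lie right of 1, whereas those of 6 relatives fall on both sides of 0 and those of Cnn2 lie below it.

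Along Tpm1 the probe sets differed. The 3 sets with the largest changes were 4404559 with -1.41, 4599174 with -1.21 and 4449390 with -1.20, and the other 6 lay between -0.47 and 0.20. Set 4599174 was at 6.26, 6.73 and 6.99 in wild type and 5.27, 5.43 and 5.67 in K14ΔNLef1, without overlap (limma adjusted p = 0.268 over all probe sets). Likewise lower without overlap were 10384 of all 109751 probe sets. Set 4449390 was at 9.35, 9.51 and 9.74 against 6.31, 8.997 and 9.68, so a single array carried its change. The limma diffSplice test, which asks whether probe sets of 1 gene change unequally, gave Tpm1 an adjusted p of 0.98, and 0 of the 6 relatives with at least 3 probe sets passed, where 0.754% of the 9818 genes tested did. At an unadjusted p of 0.05 limma's diffSplice had none of the 6 under it either, and 5.87% of the genes tested. Of the 46 probe sets of the relatives 0 passed the limma test per probe set, as 0.19% of all probe sets did, and 4 were under an unadjusted p of 0.05, as were 8.13% of all probe sets.

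Genes that work with the members were followed in 5 lists, some of which share genes. Each list's count under an unadjusted p of 0.05 is to be read beside the 11.8% of all genes under it. Its count of genes higher in K14ΔNLef1 is to be read beside the 4830 of all 11281 genes that were higher. Of 14 measured smooth muscle contractile genes 11 were higher in K14ΔNLef1, 0 rose or fell at a limma adjusted p of 0.05 and 2 were under an unadjusted p of 0.05. The median difference was 0.16, beside -0.05 over all genes. Smtn, which encodes smoothelin of contractile smooth muscle, was at 7.33, 7.42 and 7.43 in wild type and 7.92, 8.31 and 8.16 in K14ΔNLef1, a difference of 0.74 (limma adjusted p = 0.128). Smtn passed without K14ΔNLef1 replicate 1, at a limma adjusted p of 0.0371, and with a common median for every array, at 0.0485. With array weights it also passed, at a limma adjusted p of 0.00226. Those were 3 of its 16 alternatives. Cav1, the coat protein of caveolae, went the other way, from 11.25, 11.30 and 11.42 to 10.31, 10.39 and 10.79 (difference -0.82; limma adjusted p = 0.112). The smooth muscle myosin gene Myh11 was at 6.92, 6.84 and 6.87 against 7.09, 6.98 and 6.99, a difference of 0.15 (limma adjusted p = 0.776).

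Of 18 measured genes of the SRF and MRTF pathway 8 were higher, 0 rose and 1 fell, with a median of -0.02 and 2 under an unadjusted p of 0.05. The one that fell was Fhl1, a LIM-domain protein of muscle, from 7.20, 7.39 and 7.29 to 6.31, 6.39 and 6.32 (difference -0.95, SE 0.16; limma adjusted p = 0.0354). That call rested on the processing: without wild type replicate 1, 2 or 3, or without K14ΔNLef1 replicate 2 or 3, the limma adjusted p was 0.0929 to 0.193. Srf itself was at 8.03, 7.66 and 7.80 against 7.56, 7.92 and 7.74, with the genotypes overlapping (limma adjusted p = 0.894). Srf was added to those named after its values were seen, and so were Actg2, Acta1 and Myh11.

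Other genes with a calponin homology domain, the actin-binding fold that transgelins and calponins also carry, were mixed. Of 30 measured 15 were higher, 0 rose and 1 fell, with a median of 0.02 and 7 under an unadjusted p of 0.05. Limch1, an activator of non-muscle myosin, fell from 8.11, 7.09 and 7.71 to 5.50, 5.35 and 5.44, a difference of -2.21 (SE 0.26; limma adjusted p = 0.0102). The call was lost without wild type replicate 3, at 0.068. Without K14ΔNLef1 replicate 1 this list had 3 that rose, Smtn, Vav1 and Lcp1, the latter pair being best known from blood cells.

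Of 14 measured actin, myosin and tropomyosin subunits 3 were higher and none passed (2 under an unadjusted p of 0.05 by limma), with a median of -0.19. The 2 with the smallest p were the unconventional myosins Myo1c, from 8.33, 8.33 and 8.28 to 7.82, 7.92 and 7.98 (-0.41; limma adjusted p = 0.367), and Myo6, from 7.94, 7.75 and 7.81 to 6.29, 7.49 and 7.42 (-0.77; limma adjusted p = 0.394; -0.38 without K14ΔNLef1 replicate 1). Of 41 measured regulators of actin filaments 11 were higher, 0 rose and 1 fell, with a median of -0.22 and 6 under an unadjusted p of 0.05. Scin, which encodes the calcium-dependent severing protein scinderin, fell from 9.37, 9.54 and 9.58 to 6.93, 8.05 and 7.36, a difference of -2.05 (SE 0.28; limma adjusted p = 0.017). Without wild type replicate 1, 2 or 3 or K14ΔNLef1 replicate 3 its limma adjusted p was 0.0591 to 0.0978. The difference in those fits was -2.12 to -2.01. Without K14ΔNLef1 replicate 1, Enah and Coro1a of this list rose.

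**Figure D4:**
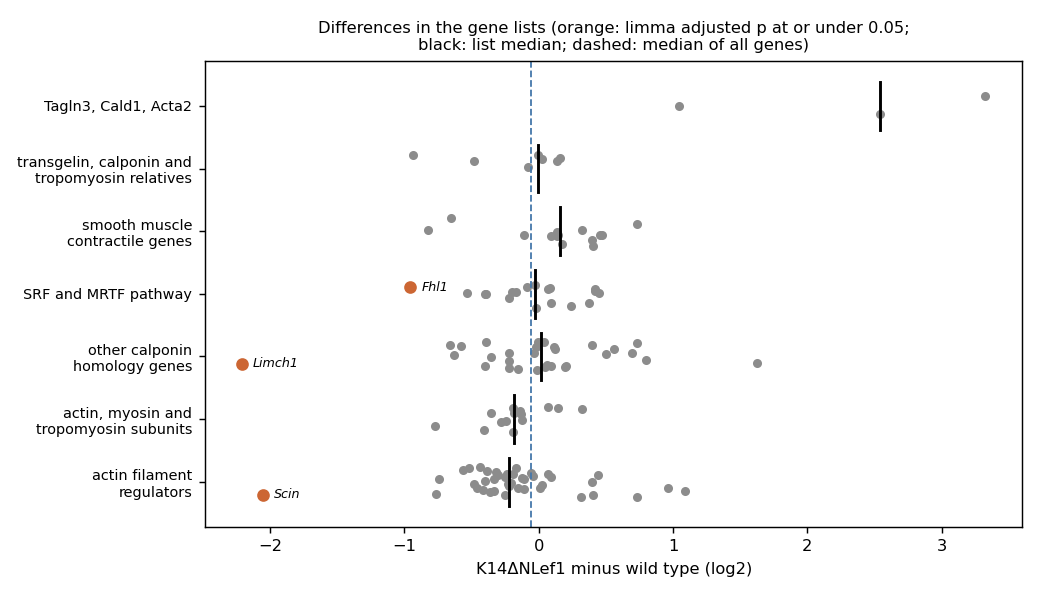
Difference of the means, K14ΔNLef1 minus wild type (horizontal axis, log2), for each measured gene of the lists, with list medians in black, the median of all genes dashed, and genes that passed the limma test at 0.05 in orange. Tagln3, Cald1 and Acta2, in the top line, were chosen by this difference and carry no test; in the 6 tested lists the orange points, Fhl1, Limch1 and Scin, all lie left of 0.

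Markers of cell types that back-skin preparations can hold were read on the same arrays, as the mean log2 over each list. Counts of higher markers are again to be read beside the 4830 of all 11281 genes that were higher in K14ΔNLef1. The keratinocyte list lay at 11.38 to 11.50 in wild type and 10.83 to 11.33 in K14ΔNLef1, with 1 of 12 markers higher and no overlap. Its largest changes were Krt1 (-0.74) and Krt10 (-0.60), keratins of the suprabasal layers. The table holds no detection calls, so it does not say which markers were at background. None of the marker genes below passed the limma test at 0.05 except Rspo3.

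The smooth muscle and pericyte list lay at 6.38 to 6.42 in wild type and 6.36 to 6.79 in K14ΔNLef1, with 8 of 12 markers higher and the largest changes in Kcnj8 (0.53) and Lmod1 (0.46). Its mean minus that of wild type was 0.39, -0.04 and 0.09 for K14ΔNLef1 replicates 1, 2 and 3. Acta2 was likewise lowest of the transgenic arrays on replicate 2, whereas Tagln3 was highest there. Replicate 2 was also the lowest transgenic array for the fibroblast, dermal papilla and sheath, endothelial and Merkel cell lists. It was not the lowest for the remaining marker lists. Cald1 was highest on replicate 3. The part of smooth muscle cells in the Acta2 difference was not tested. For Tagln3, Cald1 and Acta2 averaged in the same way, the transgenic arrays were 2.05, 2.22 and 2.63 above the wild type mean.

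The fibroblast list lay at 6.96 to 7.08 in wild type and 7.10 to 7.26 in K14ΔNLef1, with 13 of 16 higher and the largest changes in Lum (-1.29) and Fbln1 (1.02). The dermal papilla and sheath list lay at 6.30 to 6.55 and 6.23 to 6.33, with 8 of 12 higher and the largest changes in Rspo3 (-2.64, which fell at a limma adjusted p of 0.00722) and Vcan (0.46). The endothelial list lay at 6.13 to 6.15 and 6.07 to 6.42, with 8 of 11 higher and the largest changes in Cdh5 (0.31) and Esam (0.28). Among these stromal lists the fibroblast one did not overlap between the genotypes, but the gap was narrow. Its highest wild type array was at 7.084 and its lowest K14ΔNLef1 array at 7.099. The list shares Thy1 with the T cell and Langerhans cell list. Thy1 was at 9.18, 7.99 and 8.66 in wild type and 8.22, 10.15 and 9.47 in K14ΔNLef1. Averaged without Thy1, the fibroblast list overlapped between the genotypes, with K14ΔNLef1 replicate 2 below wild type replicate 3. The part of fibroblasts in the higher Tagln3, Cald1 and Acta2 was not tested.

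The list for Schwann cells and neurons, in which Tagln3 is best known, lay at 6.63 to 6.76 in wild type and 6.62 to 6.69 in K14ΔNLef1, with 8 of 15 higher. Its largest changes were Nefl (-0.93) and Tubb3 (0.45), and the genotypes overlapped in the list's level. Merkel cell markers lay at 6.71 to 7.06 and 6.71 to 7.10, with 6 of 11 higher and the largest changes in Cck (-0.32) and Insm1 (0.25). Skeletal muscle markers lay at 6.46 to 6.54 and 6.43 to 6.60, with 4 of 10 higher and the largest changes in Pvalb (0.50) and Mylpf (-0.29). The latter lists also overlapped between the genotypes.

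Melanocyte markers lay at 6.51 to 6.69 in wild type and 6.73 to 7.20 in K14ΔNLef1, with 8 of 11 higher. The largest changes were in Slc24a5 (1.47), read by 2 probe sets, and Gpnmb (0.82). The list did not overlap between the genotypes, but the gap was narrow, from 6.688 to 6.731. Averaged without Slc24a5 it overlapped, with K14ΔNLef1 replicate 1 just below wild type replicate 3. The T cell and Langerhans cell list lay at 7.48 to 8.32 and 7.77 to 9.40, with 12 of 13 higher and the largest changes in H2-Eb1 (1.35) and Ptprc (1.13). Relative to the wild type mean the latter was -0.10, 1.52 and 0.83 on K14ΔNLef1 replicates 1, 2 and 3. The transgenic array with the lowest immune markers, replicate 1, was also the lowest transgenic array for Tagln3 and Cald1. It was the lowest as well for the keratinocyte, melanocyte and Schwann cell and neuron lists, but not for the remaining marker lists. Replicate 1 is also the array with the lowest median. The immune list was highest on replicate 2, as was Tagln3, whereas Cald1 was highest on replicate 3. The part of immune cells and melanocytes in the values of Tagln3 and Cald1 was not tested.

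**Figure D5:**
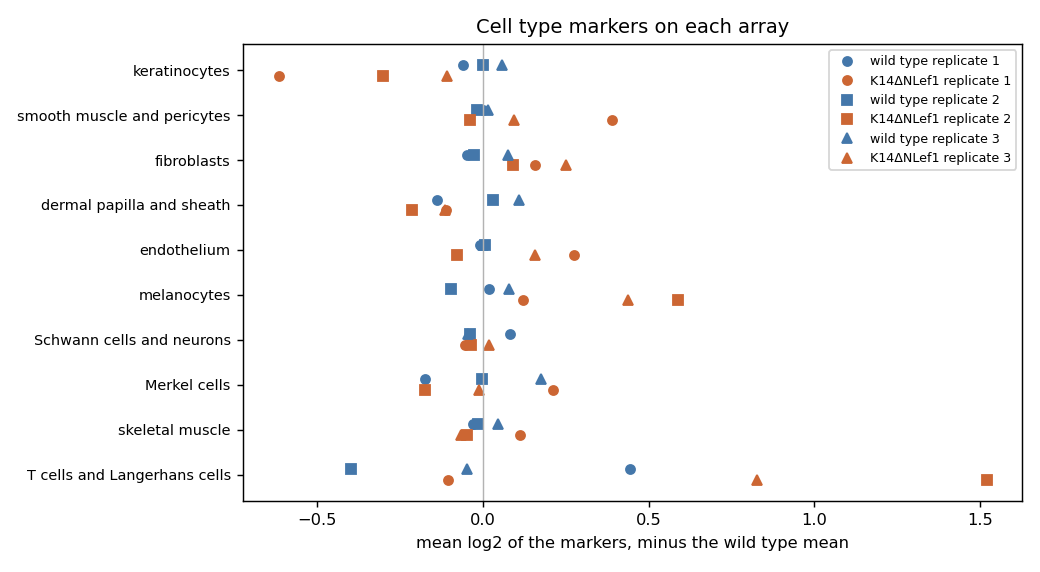
Mean log2 of each list of cell type markers on each array minus its wild type mean (horizontal axis), wild type in blue and K14ΔNLef1 in orange, with marker shape for the replicate number. The T cell and Langerhans cell list spreads furthest, to 1.52 on K14ΔNLef1 replicate 2, and the smooth muscle and pericyte list reaches 0.39 on replicate 1.

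The genes whose values over the 6 arrays were most like those of Tagln3 were sought among 9817 other genes with at least 3 probe sets, by Pearson's r. They were Trpv4 (0.9985), Kcnab3 (0.996), Efhc2 (0.9959), Il18rap (0.9927) and Kit (0.9918). For Cald1 they were Rapgef4 (0.9965), Nup210 (0.995), Sh2d3c (0.9948), Spo11 (0.9945) and Il18rap (0.9913). The measure ignores size: Trpv4, a cation channel, was higher by 0.64 and Kcnab3, a potassium channel subunit, by 0.27. The arrays fall into the 2 genotypes, so r mostly ranks how evenly a gene separates them, and it is given as a description. Tagln3 and Cald1 had an r of 0.974 with each other, at rank 24 in the list of Tagln3 and rank 33 in that of Cald1.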

How the data were processed

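Epidermal RNA of 3 wild type and 3 K14ΔNLef1 samples was measured on exon arrays. The deposited table holds linear intensity values, 1 per probe set and array. The submitters' processing notes name RMA, Affymetrix Power Tools and, as genome build, mm9. Tool versions are not given in the sources used here. RMA is known to compress differences of dim probe sets. Log2 of the deposited values was taken. Probe sets with exactly 1 symbol in the platform annotation were kept (109751 of 114330; 834 had several and 3745 none), and 1226 older symbols were updated. A gene's value is the mean log2 of its probe sets, with no filter on low values. The number of arrays limits the precision.

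Tests on genes and on probe sets used the R package limma (limma 3.58.1, R 4.3.3; two-sided lmFit and eBayes, Benjamini-Hochberg over the whole table, threshold 0.05), with groups from the sample labels. Intervals are 95% intervals of the fit, not adjusted for multiple tests. diffSplice was run on genes with at least 3 probe sets. Tested on simulated data in which the probe sets of a gene differ in noise, it called more unchanged genes than its threshold allows, so its count over all genes may be too high. Python 3.11.15 (pandas 2.3.3) made the tables and matplotlib 3.10.9 drew the figures. The members and lists were chosen with earlier results of these data known. Named genes are the 10 members, Lef1, in each pathway list up to 4 that passed with the largest change or else the 2 with the smallest p, in each marker list the 2 with the largest change, and the 5 genes most like Tagln3 and Cald1; any named beyond this was chosen after its values were seen. Other summaries, scalings, filters, variance models, blocks and left-out replicates were tried.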

Additional observations from a re-analysis of the deposited data

How the results depend on the processing

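With 3 arrays per genotype, the intervals of the relatives are wide, and without detection calls in the table it is not known which probe sets were near background. The differences of Tagln3, Cald1 and Acta2 stayed above 0 in the 16, 16 and 14 alternatives run, between 1.63 and 3.999, 2.27 and 2.87, and 0.60 and 1.41. Tagln3 was at 3.999 with the median of its probe sets and at 1.63 with brighter probe sets only, where 1 set was left. Acta2 gives no value with brighter probe sets only or with dim genes left out, because its probe sets and its gene value were too dim. The 7 relatives stayed on the same side of the limma threshold in all alternatives that gave them a value (15 for Cnn1, 16 for the others). Their differences are not called, and those of Tagln, Tagln2, Cnn1, Cnn3 and Tpm2 took both signs, from -0.19 to 0.33, -0.35 to 0.09, -0.07 to 0.28, -0.21 to 0.75 and -0.41 to 0.36.

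Counts over all genes moved. Those that rose, 37, became 103 with arrays shifted to the same median, 89 with quantile normalization, 598 with array weights (which gave K14ΔNLef1 replicate 2 a weight of 5.18 and replicate 1 0.15), 71 at an adjusted p of 0.1, and 8 to 115 with a replicate left out. Those that fell, 94, became 699 with array weights, 61 with adjacent sample numbers as a block, 50 with the array number as a covariate, 165 at an adjusted p of 0.1, and 18 to 124 with a replicate left out. The median change of all genes was -0.05, and 0.05 and 0.06 after arrays were given a common median or were quantile normalized. With array weights, the lists gained calls: regulators of actin filaments had 4 that rose and 2 that fell, subunits 1 that fell, other calponin homology genes 5 that rose and 3 that fell, smooth muscle contractile genes 2 that rose and 1 that fell, and the SRF and MRTF pathway 3 that rose. With brighter probe sets only, 2 regulators fell. With the same median, 1 smooth muscle and 1 calponin homology gene rose (Smtn in both lists). With a replicate left out, the ranges were 0 to 2 that rose and 0 to 1 that fell for regulators, 0 to 3 and 0 to 1 for calponin homology genes, 0 to 1 that rose for smooth muscle genes and 0 to 1 that fell for the SRF and MRTF pathway. In that pathway 0 fell with the median of probe sets, the same median, quantile normalization, adjacent sample numbers or the array number in the fit. The causes were not tested.

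With the replicate number as a block, 26 genes rose and 49 fell, and 0 genes of the SRF and MRTF pathway fell (Fhl1 had a limma adjusted p of 0.137); no other call on a list or relative changed. Deviations from the group means of same-numbered arrays correlated at -0.16, -0.17 and 0.04 across genes. The replicate numbers are therefore not taken to pair the samples. Adjacent sample numbers join wild type replicates 1, 2 and 3 with K14ΔNLef1 replicates 2, 3 and 1, in that order. The deviations of those arrays correlated at 0.20, -0.07 and -0.007. The counts of Acta2 probe sets above every wild type array, 2 to 6 with a replicate left out, were compared under alternatives chosen after seeing the data. So were those of Tagln3 and Cald1.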
